A study of Rattus norvegicus with 6 samples.

Results

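The solute carriers (Slc genes) expressed in RBL-2H3 cells are the subject here, 138 of the 273 Slc symbols in a table of 18286 genes. Members were selected on measured values, as symbols of Slc followed by a digit with a mean of at least 1 RPKM (reads scaled to exon length in kilobases and to the library total) over all 6 libraries. The symbols Slc18a2, Slc7a5, Slc3a2, Slc7a11, Slc2a1, Slc2a3 and Slc16a3 were set apart by the same rule. Another 128 symbols lay below the level. The members belong to 38 numbered families, and 3 of them (Slc9a3r1, Slc7a6os and Slc4a1ap) carry the name of a carrier but are partner or neighbour genes.

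Solute carriers move ions, nutrients, metals and metabolites across the plasma membrane and the membranes of organelles, as facilitators, as cotransporters driven by an ion gradient, or as exchangers. Mast cells take up amino acids and phosphate through them, set chloride, bicarbonate and pH with them, and keep zinc in their secretory granules. Inside the cell, mitochondrial carriers supply respiration, and nucleotide sugar transporters supply the glycosylation of secreted and surface proteins.

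RBL-2H3 is a rat basophilic leukemia line with the high-affinity IgE receptor, in wide use as a model of mast cells. The study asked about dihydrocoumarin (DHC), a lactone related to coumarin, in IgE-dependent activation of such cells. RNA sequencing gave 3 DHC libraries and 3 control libraries. The protocol written for all 6 samples sensitizes the cells for 12 h with anti-DNP IgE at 50 ng/ml, and after a wash adds the antigen DNP-HSA at 100 ng/ml for 4 h. The DHC group is labelled with its agent alone, without a dose or a duration, and the control group has the treatment label none. Beyond the shared protocol, no label says whether control cells received IgE and antigen, so the comparison is DHC against control as labelled. The labels also call the source peripheral blood and the cells blood corpuscles, although the samples are this 1 cell line. Whether each library is its own culture is not in the labels, and the p-values rest on the spread among these 6 libraries, part or all of which could be technical.

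DHC libraries held 29190987 to 31299551 reads assigned to genes and control libraries 29084976 to 34170922, a difference that an exact two-sided permutation test did not resolve (p = 0.7, where 3 against 3 cannot go below 0.1). At these depths 3 reads correspond to 0.0878 to 0.103 RPM (reads scaled to the library total alone), a limit that covers counting error only. Among the mast cell and basophil markers, 11 of 13 were in the table and 9 were tested, of which 1 rose and 4 fell. By the same test, described below, 34.5% of all genes tested passed. Ms4a2, a chain of the IgE receptor, was the higher one (369 ± 10.00 RPKM with DHC and 321 ± 15.9 RPKM in control), a call that ended without control library 2, without DHC library 2 or 3, after scaling by trimmed means or with median-of-ratios factors (limma adjusted p between 0.0586 and 0.0763). The lower ones were Gata2, a transcription factor (69.9 ± 1.90 RPKM with DHC and 345 ± 10.3 RPKM in control), the receptors Kit and Il1rl1, and Hdc, which makes histamine. The call of Hdc ended without control library 2 or 3 or without DHC library 2 (limma adjusted p between 0.0545 and 0.0671). The summed level of the 11 was 713 to 741 RPKM in DHC libraries and 1028 to 1059 RPKM in control libraries. With Gata2 set aside, after its values were seen, it was 642 to 671 RPKM in DHC libraries and 680.3 to 726 RPKM in control libraries. Tpsb2, a mast cell tryptase, was at 0 in all DHC libraries and averaged 0.0168 RPKM in control. Of the markers of 7 other cell types, Cd3e (41.8 ± 1.69 RPKM with DHC and 34.6 ± 2.85 RPKM in control) and Col3a1 (21.9 ± 1.44 RPKM with DHC and 23.6 ± 0.934 RPKM in control) stood above 3 RPKM and no other did, and the other T cell and fibroblast markers were at or near 0. The part of these marker differences in the carriers' results was not tested. In RNA from whole cultures, fewer cells of a type and less RNA per cell cannot be told apart. The DHC and control libraries numbered 1 deviated together from their group means (r = 0.228 across genes), so counts are also given with both of them left out.

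The members spanned 1.03 to 195 RPKM, with a median of 5.11 RPKM, against a median of 11.2 RPKM over all 10667 genes at 1 RPKM or more. The most abundant were Slc39a7 (ZIP7, which releases zinc from the endoplasmic reticulum) at 195 RPKM, Slc25a3 (the mitochondrial phosphate carrier) at 184 RPKM and Slc38a2 (SNAT2, a sodium-coupled importer of neutral amino acids) at 179 RPKM. Just inside the level of the rule were Slc3a1 (1.03 RPKM), Slc39a5 (1.05 RPKM) and Slc7a7 (1.07 RPKM), and just outside it were Slc8b1 (0.968 RPKM), Slc16a4 (0.899 RPKM) and Slc30a6 (0.889 RPKM). Of the 128 symbols below the level, 53 were at 0.1 RPKM or more and none lacked reads in every library. Slc16a4, Slc27a4 and Slc25a47 were kept out although their DHC means were 1.26, 1.26 and 1.09 RPKM, against control means of 0.538, 0.517 and 0.231 RPKM. Conversely, 7 members had 1 group mean under 1 RPKM and entered through the other group, and 2 of these, Slc39a3 and Slc37a3, passed the test described next.

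DHC was compared with control by limma on log2(RPKM + 1) over all 10667 genes, with Benjamini-Hochberg adjustment and an adjusted p of 0.05 as the threshold. All members passed the filter on low values, since it was the same level as in the rule. With DHC, 25 members were higher and 22 were lower, and 91 did not pass. Over all genes tested, 34.5% passed, 18.4% being higher and 16.1% lower. The members' share of 34.1% was near that background, so the number of calls says nothing particular about solute carriers. Their median log2 fold change was 0.04, against 0.05 over all genes. The DHC and control values did not overlap in any of the 47 members that passed nor in 19 that did not (47.8% of the members together), against 49.7% of all genes tested. Fold changes were small: the median size among the 47 was 0.40 on the log2 scale, 9 were higher by at least 1.5-fold in mean RPKM and 2 were lower by that much.

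Scaling changed the balance of directions. By library totals, 53.4% of all calls were higher with DHC, against 37.8% after scaling by trimmed means, and among members the share was 53.2%, against 44.2% (19 higher and 24 lower). Leaving out 1 library gave 15 higher members without control library 2 or DHC library 2 and 16 without DHC library 3, and the lower members numbered 17 to 20. Without both libraries numbered 1 there were 22 higher and 16 lower. With the threshold kept, calls held under every one of the 16 alternatives in which the member was tested for 29 of the 47 members, 14 higher and 15 lower. A stricter threshold of 0.01 kept 11 higher and 14 lower members.

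Calls were more frequent at higher levels. Of the 70 members at 5 RPKM or more 34 passed (48.6%, against 39.4% of all genes at that level), and of the 68 members from 1 to 5 RPKM 13 passed (19.1%, against 23.1% of all genes). The median coefficient of variation among replicates was 6.05% with DHC and 7.14% in control for the members at 5 RPKM or more, and 11.8% with DHC and 12.6% in control for the members below. Fold changes on the log2(RPKM + 1) scale understate the change of the low members. Ratios of mean RPKM or the means themselves are therefore given beside them for the low members that passed. For example, Slc37a3 at 0.43 on that scale was 1.72-fold higher in mean RPKM, and Slc35d1 at 0.41 was 1.56-fold higher.

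**Figure D1:**
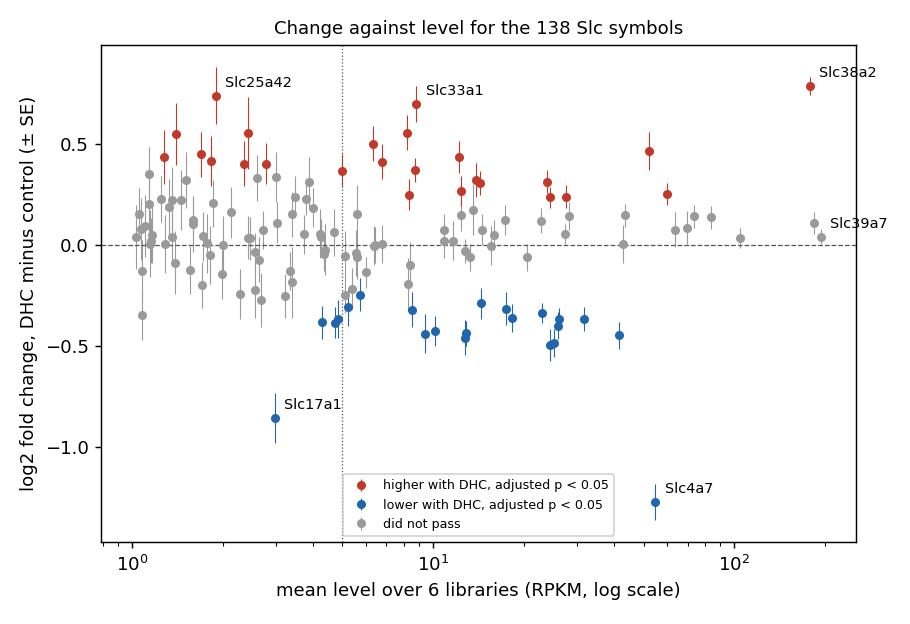
Change of each of the 138 Slc symbols against its level. The horizontal axis gives the mean over 6 libraries in RPKM on a log scale, the vertical axis the log2 fold change of DHC over control on the log2(RPKM + 1) scale with its standard error, and the dotted line marks 5 RPKM. Slc4a7 lies lowest at -1.27 and Slc38a2 highest at 0.79.

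**Figure D2:**
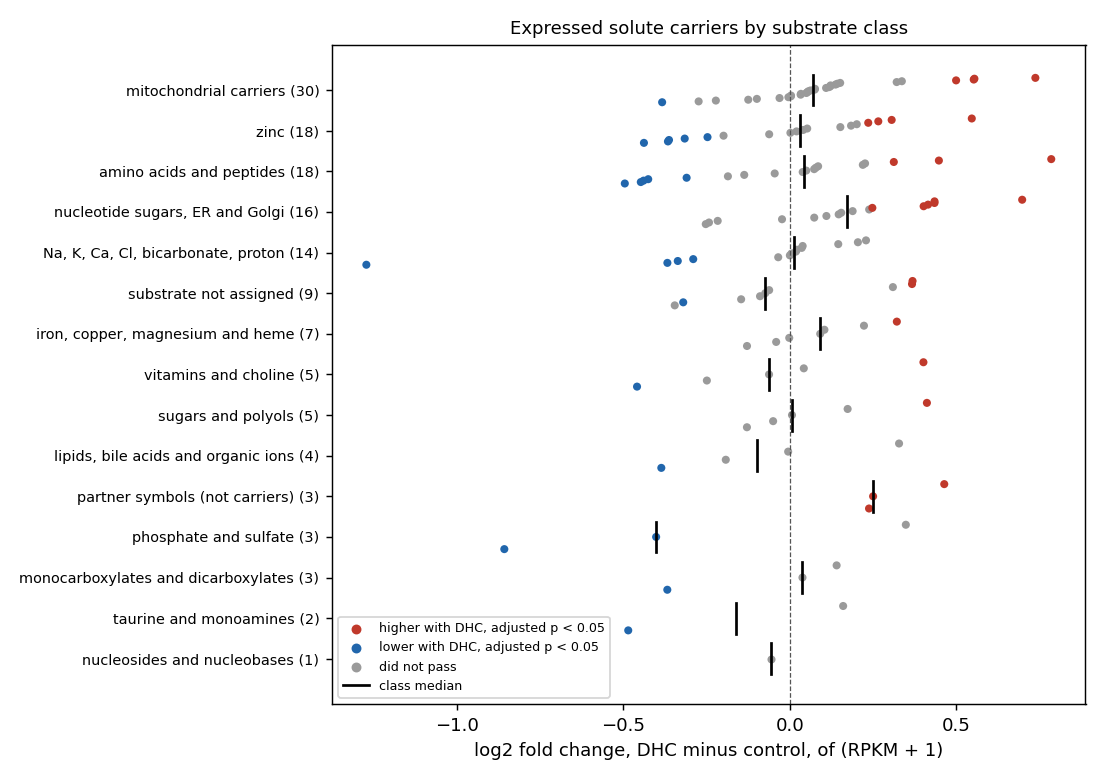
Log2 fold change of DHC over control, on the log2(RPKM + 1) scale, for every member by substrate class, with the number of members in brackets. Each point is a gene, coloured by its call, and the black bar is the class median. In the 16 nucleotide sugar, ER and Golgi carriers all 6 calls are higher, and in the 14 ion carriers all 4 calls are lower. The shares called are 37.5% and 28.6%, against 34.5% of all genes tested.

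The 18 carriers of amino acids and peptides split, with 3 higher, 5 lower and 10 that did not pass, and a median log2 fold change of 0.04. In this class 44.4% passed, against 34.5% of all genes tested. Slc38a2 rose 1.73-fold and was the most abundant of them by RPKM. Its neighbour on the chromosome, Slc38a1 (SNAT1, also a sodium-coupled importer of glutamine and other neutral amino acids), fell. Slc38a2 stood at 218, 229 and 234 RPKM in DHC libraries, against 129, 132 and 132 RPKM in control libraries, a log2 fold change of 0.79 ± 0.04 (SE, limma adjusted p = 1.99e-05). Slc38a1 stood at 37.2, 31.7 and 36.2 RPKM in DHC libraries, against 48.0, 47.6 and 48.5 RPKM in control libraries, a log2 fold change of -0.45 ± 0.07 (SE, limma adjusted p = 0.00193). In both genes all DHC values lay on 1 side of all control values, and the control libraries were nearly level with each other. Both genes lie on the minus strand of chromosome 7, at chr7:137975549-138039984 for Slc38a1 and chr7:138088649-138100841 for Slc38a2 in the coordinates of the files (Rnor_6.0), with 48.7 kb between them.

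Because these neighbours moved in opposite directions, their promoters are shown, from 250 bases before to 50 bases after the annotated start, as given by RefSeq for the build GRCr8 (Slc38a2 at chr7:129742570-129742869, minus strand, and Slc38a1 at chr7:129681352-129681651, minus strand). Capitals mark TGATGNAA, the core of the amino acid response element that binds ATF4, searched on both strands.
Slc38a2: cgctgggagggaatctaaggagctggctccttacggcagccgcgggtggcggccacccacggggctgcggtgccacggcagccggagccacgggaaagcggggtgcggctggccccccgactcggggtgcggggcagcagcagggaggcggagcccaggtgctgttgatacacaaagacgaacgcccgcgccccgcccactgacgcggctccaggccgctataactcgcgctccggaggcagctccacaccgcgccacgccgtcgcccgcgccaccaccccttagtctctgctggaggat
Slc38a1: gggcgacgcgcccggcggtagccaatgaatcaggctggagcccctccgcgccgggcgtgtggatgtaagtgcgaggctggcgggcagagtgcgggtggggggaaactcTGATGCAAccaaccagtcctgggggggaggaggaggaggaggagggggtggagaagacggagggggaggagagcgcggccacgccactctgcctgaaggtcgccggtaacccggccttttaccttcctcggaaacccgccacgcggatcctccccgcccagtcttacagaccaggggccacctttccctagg
The Slc38a1 window holds 1 match, which begins 142 bases before the start, and the Slc38a2 window holds none. Of 27457 promoters of this length, 3.82% hold the letters, and of the 105 members found in that set, 4 do (Slc7a1, Slc38a1, Slc1a4 and Slc35a2). Of these 4, Slc7a1 and Slc38a1 fell, Slc1a4 rose and Slc35a2 did not pass (log2 fold change -0.02, limma adjusted p = 0.901). A match is only a stretch of letters, and a window without one says nothing about ATF4.

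Slc1a4 and Slc1a5, exchangers of the Slc1 family, also split. Slc1a4 (ASCT1, an exchanger of alanine, serine and cysteine) stood at 28.0, 25.2 and 26.8 RPKM in DHC libraries, against 21.1, 20.8 and 21.8 RPKM in control libraries, a log2 fold change of 0.31 ± 0.06 (SE, limma adjusted p = 0.00528). Slc1a5 (ASCT2, the related exchanger that also takes glutamine) stood at 8.32, 8.62 and 8.60 RPKM in DHC libraries, against 10.8, 12.2 and 12.5 RPKM in control libraries, a log2 fold change of -0.43 ± 0.07 (SE, limma adjusted p = 0.00381). The groups did not overlap in either gene, which puts DHC above control in Slc1a4 and below it in Slc1a5. Slc7a1 (CAT-1, the importer of arginine and lysine) stood at 22.1, 18.2 and 20.3 RPKM in DHC libraries, against 27.5, 29.9 and 29.1 RPKM in control libraries, a log2 fold change of -0.50 ± 0.08 (SE, limma adjusted p = 0.00248). Slc6a9 (GlyT1, a glycine importer) stood at 7.82, 8.19 and 7.50 RPKM in DHC libraries, against 9.42, 12.2 and 11.5 RPKM in control libraries, a log2 fold change of -0.44 ± 0.10 (SE, limma adjusted p = 0.0116). All DHC libraries were below all control libraries in both. The exons of Slc6a9 overlap Ccdc24 on the other strand, and since the counting is not stated to use strand, their reads cannot be told apart.

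Of the remaining amino acid carriers, Slc43a2 (LAT4, a facilitator of branched-chain and other large neutral amino acids) was 1.65-fold higher with DHC at a low level (2.12 ± 0.200 RPKM with DHC and 1.29 ± 0.148 RPKM in control), with a log2 fold change of 0.45 (limma adjusted p = 0.0186), a call that ended without control library 2 (limma adjusted p = 0.0619), without DHC library 2 (0.073) or without both libraries numbered 1 (0.0696). Slc36a4, a carrier of proline and tryptophan, was 1.30-fold lower (4.56 ± 0.295 RPKM with DHC and 5.91 ± 0.604 RPKM in control), with a log2 fold change of -0.31 (limma adjusted p = 0.0362). Its call ended without control library 1 or 3, without DHC library 2 or 3, with no filter on low values or without both libraries numbered 1 (limma adjusted p between 0.0767 and 0.109). Slc38a10, the second of the class by level, was at 71.6 ± 5.52 RPKM with DHC and 67.5 ± 5.99 RPKM in control and did not pass (log2 fold change 0.08, limma adjusted p = 0.439). The summed level of the class was 426 ± 12.3 RPKM with DHC and 349.6 ± 10.1 RPKM in control (SD, n = 3 each), and with Slc38a2 set aside it was 199 ± 6.77 RPKM with DHC and 218 ± 8.62 RPKM in control (SD, n = 3 each), so the sign of the difference in the sum turns on that 1 gene.

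**Figure D3:**
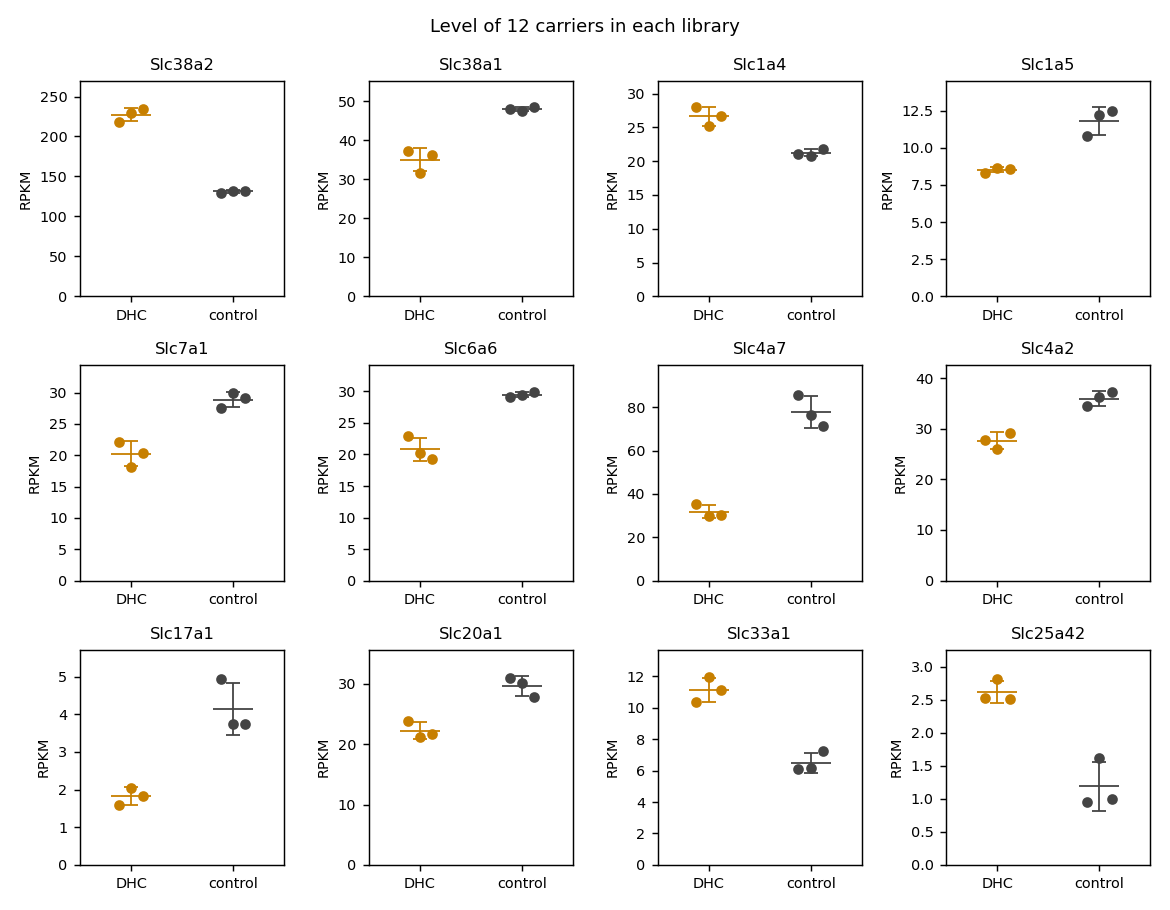
Level of 12 members in each library, in RPKM, with DHC at the left and control at the right of each panel. Points are libraries, the long bar is the mean and the whiskers are 1 SD (n = 3). In every panel all 3 DHC libraries lie on 1 side of all 3 control libraries. That follows from the choice of panels, since all 12 passed the test and no groups overlap in any of the 47 members that passed. Of all genes tested, 49.7% have groups that do not overlap.

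Among the 14 carriers of sodium, potassium, calcium, chloride, bicarbonate and protons, 4 fell, none rose and 10 did not pass, with a median log2 fold change of 0.01. The share that passed was 28.6%, against 34.5% of all genes tested. Slc4a7 (NBCn1, which imports sodium with bicarbonate and so brings base into the cell) had the largest change of all 138 members, 2.46-fold lower with DHC. Slc4a7 stood at 35.1, 29.7 and 30.2 RPKM in DHC libraries, against 85.8, 76.5 and 71.4 RPKM in control libraries, a log2 fold change of -1.27 ± 0.09 (SE, limma adjusted p = 5.89e-05). The highest DHC value was well under the lowest control value. The gene lies at chr15:11836286-11912916 on the minus strand (Rnor_6.0).

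The other 3 that fell also handle chloride, bicarbonate or calcium, with smaller changes. Slc4a2 (AE2, which exchanges bicarbonate for chloride) stood at 27.8, 25.9 and 29.2 RPKM in DHC libraries, against 34.4, 36.2 and 37.2 RPKM in control libraries, a log2 fold change of -0.37 ± 0.06 (SE, limma adjusted p = 0.00321). Slc12a2 (NKCC1, which imports sodium, potassium and chloride together) stood at 19.8, 19.8 and 20.9 RPKM in DHC libraries, against 25.5, 25.4 and 26.3 RPKM in control libraries, a log2 fold change of -0.34 ± 0.05 (SE, limma adjusted p = 0.00221). Slc24a3 (NCKX3, which exports calcium in exchange for sodium) was at 12.9 ± 0.861 RPKM with DHC and 16.0 ± 1.25 RPKM in control, a log2 fold change of -0.29 (limma adjusted p = 0.0246). In these 3 genes too, every DHC library was below every control library. The call of Slc24a3 ended without control library 1 or 2, without DHC library 2 or 3 or with no filter on low values (limma adjusted p between 0.0504 and 0.084). The potassium and chloride exporters Slc12a4 and Slc12a7 had log2 fold changes of 0.02 and 0.04, and neither passed. The summed level of the class was 133 ± 5.30 RPKM with DHC and 194 ± 8.77 RPKM in control (SD, n = 3 each). Without Slc4a7 it was 102 ± 2.57 RPKM with DHC and 116 ± 1.57 RPKM in control (SD, n = 3 each), and all DHC libraries were still below all control libraries.

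Of the 3 phosphate carriers, 2 fell, a class too small for its share to be read against the 34.5% of all genes tested that passed. Slc17a1, an organic anion and urate carrier first described as a phosphate transporter, had the next largest fall, 2.27-fold. It stood at 1.60, 2.05 and 1.83 RPKM in DHC libraries, against 4.94, 3.75 and 3.74 RPKM in control libraries, a log2 fold change of -0.86 ± 0.12 (SE, limma adjusted p = 0.00187). Slc20a1 (PiT-1, the sodium-coupled phosphate importer) stood at 23.8, 21.2 and 21.7 RPKM in DHC libraries, against 31.0, 30.2 and 27.8 RPKM in control libraries, a log2 fold change of -0.40 ± 0.07 (SE, limma adjusted p = 0.00338). Neither gene's groups overlapped. The third member of the phosphate class, Slc20a2 (PiT-2), was 1.58-fold higher, at 1.40 ± 0.225 RPKM with DHC and 0.881 ± 0.159 RPKM in control. Its log2 fold change of 0.35 did not pass (limma adjusted p = 0.0787) except by limma-voom (adjusted p = 0.0175). The groups of Slc20a2 did not overlap. Since its control mean was under 1 RPKM, it became a member through its DHC values.

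Slc6a6, the sodium and chloride coupled taurine importer, stood at 22.9, 20.2 and 19.3 RPKM in DHC libraries, against 29.1, 29.4 and 29.9 RPKM in control libraries, a log2 fold change of -0.49 ± 0.07 (SE, limma adjusted p = 0.0016), with every DHC library below every control library. Slc16a6 (MCT7), 1 of 3 carriers of mono- and dicarboxylates, was at 4.10 ± 0.460 RPKM with DHC and 5.57 ± 0.311 RPKM in control, a log2 fold change of -0.37 (limma adjusted p = 0.0209). Its call ended without control library 3, without DHC library 3, with no filter on low values or without both libraries numbered 1 (limma adjusted p between 0.053 and 0.0673). Slc16a1 (MCT1, the lactate and pyruvate carrier) was at 77.1 ± 2.78 RPKM with DHC and 69.9 ± 4.09 RPKM in control and did not pass, with a log2 fold change of 0.14 (limma adjusted p = 0.0904), except with replicate number as a block (0.0485). The vesicular monoamine transporter Slc18a1 and the vesicular nucleotide transporter Slc17a9 did not pass either, at log2 fold changes of 0.16 and -0.06.

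The 30 mitochondrial carriers (family Slc25) were the largest class and had few calls, 4 higher and 1 lower, and a median log2 fold change of 0.07. Of the class 16.7% passed, against 34.5% of all genes tested. The abundant carriers of oxidative metabolism did not pass: Slc25a3 was at 191 ± 11.1 RPKM with DHC and 177 ± 6.58 RPKM in control (0.11, limma adjusted p = 0.162 on the log2 scale), Slc25a5 (an exchanger of ADP and ATP) at 106 ± 2.70 RPKM with DHC and 104 ± 4.64 RPKM in control (0.03, limma adjusted p = 0.637) and Slc25a4 (its homolog) at 87.9 ± 2.51 RPKM with DHC and 79.9 ± 5.19 RPKM in control (0.14, limma adjusted p = 0.101). Slc25a3 passed without DHC library 1 (limma adjusted p = 0.0497), and with replicate number as a block both Slc25a3 and Slc25a4 passed (0.0344 each). After scaling by trimmed means the log2 fold change of Slc25a5 was -0.03. Slc25a42 (the carrier of coenzyme A) rose 2.20-fold at a low level, and it was the only member at least 2-fold higher. It stood at 2.52, 2.81 and 2.52 RPKM in DHC libraries, against 0.945, 1.62 and 1.002 RPKM in control libraries, a log2 fold change of 0.74 ± 0.14 (SE, limma adjusted p = 0.00606). Slc25a30 stood at 9.12, 10.6 and 10.2 RPKM in DHC libraries, against 7.08, 5.99 and 6.35 RPKM in control libraries, a log2 fold change of 0.55 ± 0.09 (SE, limma adjusted p = 0.00258). Slc25a46, which acts in the dynamics of the outer membrane rather than as a known carrier, was at 7.56 ± 0.220 RPKM with DHC and 5.07 ± 0.548 RPKM in control, a log2 fold change of 0.50 (limma adjusted p = 0.00409). In all 3 genes the DHC values were above all control values. The exons of Slc25a46 overlap Sap130 on the other strand.

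Slc25a40, a carrier needed for mitochondrial glutathione together with Slc25a39, was 1.70-fold higher (3.07 ± 0.534 RPKM with DHC and 1.80 ± 0.647 RPKM in control), with a log2 fold change of 0.55 (limma adjusted p = 0.0455). Its call ended without control library 2 or 3, without DHC library 1, 2 or 3, with no filter on low values, after scaling by trimmed means or with median-of-ratios factors (limma adjusted p between 0.0595 and 0.126). Slc25a39 did not pass (42.6 ± 2.58 RPKM with DHC and 42.7 ± 5.46 RPKM in control, log2 fold change 0.0029, limma adjusted p = 0.985). The only lower call of the class was Slc25a24 (a calcium-regulated exchanger of ATP-Mg and phosphate), at 3.59 ± 0.286 RPKM with DHC and 4.98 ± 0.00910 RPKM in control, a log2 fold change of -0.38 (limma adjusted p = 0.0103). Without both libraries numbered 1 the adjusted p of Slc25a24 by limma was 0.0515. The summed level of the class was 722 ± 28.9 RPKM with DHC and 678 ± 23.4 RPKM in control (SD, n = 3 each), with overlap between the groups. The 37 mitochondrially encoded genes took 4.00% ± 0.127 of reads with DHC and 3.44% ± 0.0956 in control, and their part in these values was not tested.

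The 16 carriers of nucleotide sugars and other substrates of the endoplasmic reticulum and Golgi had 6 higher calls, none lower, and a median log2 fold change of 0.17. That is 37.5% of the class, near the 34.5% of all genes tested that passed. Slc33a1, which brings acetyl-CoA into the endoplasmic reticulum for protein acetylation, rose 1.72-fold. It stood at 10.4, 11.9 and 11.1 RPKM in DHC libraries, against 6.08, 6.14 and 7.25 RPKM in control libraries, a log2 fold change of 0.70 ± 0.09 (SE, limma adjusted p = 0.000997). Slc35a1, the CMP-sialic acid transporter of the Golgi, stood at 13.6, 13.9 and 15.2 RPKM in DHC libraries, against 10.8, 9.34 and 10.7 RPKM in control libraries, a log2 fold change of 0.43 ± 0.08 (SE, limma adjusted p = 0.00451). The groups did not overlap in either gene, and both calls held under all 16 alternatives that kept the threshold. The other 4 calls did not. Slc37a4, the glucose-6-phosphate translocase of the endoplasmic reticulum, was at 9.13 ± 0.0746 RPKM with DHC and 7.55 ± 0.699 RPKM in control, a log2 fold change of 0.25 (limma adjusted p = 0.042), and its call ended without control library 1 or 2, without DHC library 1, 2 or 3, with no filter on low values, after scaling by trimmed means, with median-of-ratios factors or without both libraries numbered 1 (limma adjusted p between 0.0749 and 0.136). Slc35d1, a carrier of UDP-glucuronic acid and UDP-N-acetylgalactosamine, was at 2.23 ± 0.132 RPKM with DHC and 1.43 ± 0.280 RPKM in control, a log2 fold change of 0.41 (limma adjusted p = 0.0345), and its call ended without any 1 of the 6 libraries, with no filter on low values, after scaling by trimmed means, with median-of-ratios factors or without both libraries numbered 1 (limma adjusted p between 0.0507 and 0.118). Those 2 genes and the 2 that follow had every DHC value above every control value. Slc35a5 was at 2.83 ± 0.335 RPKM with DHC and 1.90 ± 0.203 RPKM in control, a log2 fold change of 0.40 (limma adjusted p = 0.0287), and its call ended without control library 1 or 2, without DHC library 2 or 3 or with no filter on low values (limma adjusted p between 0.0627 and 0.0946). Slc37a3 was at 1.62 ± 0.190 RPKM with DHC and 0.941 ± 0.232 RPKM in control, a log2 fold change of 0.43 (limma adjusted p = 0.0407), and its call ended without control library 2 or 3, without DHC library 1, 2 or 3, with no filter on low values, after scaling by trimmed means, with median-of-ratios factors, with replicate number as a block or without both libraries numbered 1 (limma adjusted p between 0.0545 and 0.117). Since its control mean was under 1 RPKM, Slc37a3 became a member through its DHC values.

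Only Slc33a1 and Slc35a1 of this class were higher without control library 2, DHC library 2 or DHC library 3, and 3 members were higher without control library 1 and after scaling by trimmed means. Slc35b1 (which exchanges ATP and ADP at the endoplasmic reticulum), the most abundant of the class, was at 45.8 ± 2.38 RPKM with DHC and 41.2 ± 1.62 RPKM in control. It did not pass (log2 fold change 0.15, limma adjusted p = 0.0811) except without DHC library 1 (0.0464) or with replicate number as a block (0.0357). Slc35a4 did not pass (0.07, limma adjusted p = 0.49). The summed level was 127 ± 4.45 RPKM with DHC and 109 ± 1.51 RPKM in control (SD, n = 3 each), with all DHC libraries above all control libraries.

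The 18 zinc carriers were called in both directions, 4 higher and 5 lower, and their summed level was 371 ± 0.208 RPKM with DHC and 376 ± 0.794 RPKM in control (SD, n = 3 each). The median log2 fold change was 0.03, and 50% of the class passed, against 34.5% of all genes tested. Slc39a7, which holds the largest part of that sum, was at 198 ± 0.395 RPKM with DHC and 192 ± 3.32 RPKM in control and did not pass (log2 fold change 0.04, limma adjusted p = 0.43, and -0.03 after scaling by trimmed means). Directions were mixed both in the Slc30 family, most of which moves zinc out of the cytosol (2 of 6 higher and 2 lower), and in the Slc39 family, which moves it in (2 of 12 higher and 3 lower).

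**Figure D4:**
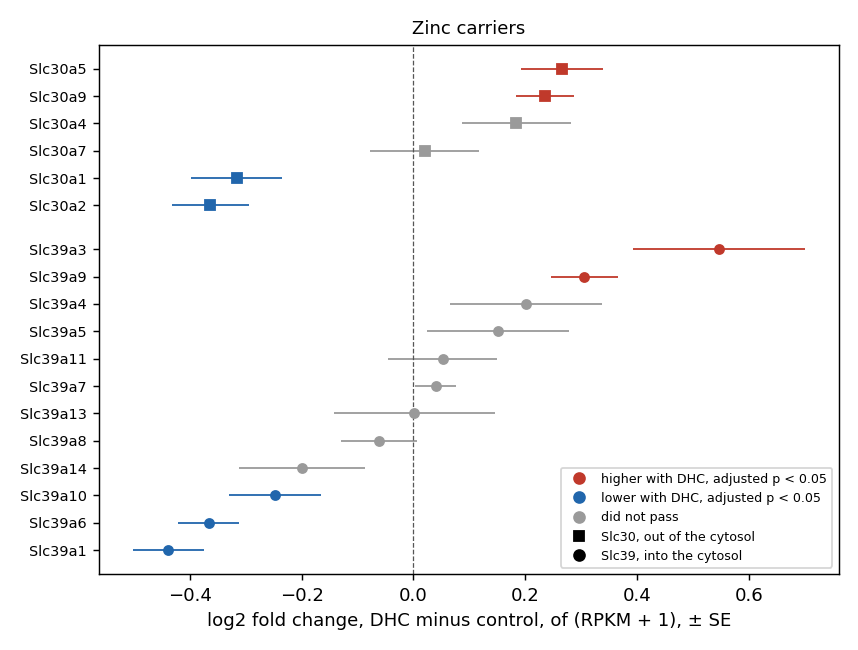
Log2 fold change of DHC over control, on the log2(RPKM + 1) scale, with standard errors, for the 18 zinc carriers. Squares are the Slc30 family and circles the Slc39 family, and colours give the call. Calls in both directions occur in both families, between -0.44 for Slc39a1 and 0.55 for Slc39a3. Slc39a3 is a member through its DHC values, as its control mean is under 1 RPKM.

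The 5 lower calls came from both families. Slc39a1 (ZIP1, a zinc importer) stood at 10.9, 10.1 and 11.4 RPKM in DHC libraries, against 15.1, 15.0 and 14.9 RPKM in control libraries, a log2 fold change of -0.44 ± 0.06 (SE, limma adjusted p = 0.0018). Slc39a6 (ZIP6, a zinc importer) stood at 22.2, 22.5 and 23.7 RPKM in DHC libraries, against 29.0, 29.0 and 31.0 RPKM in control libraries, a log2 fold change of -0.37 ± 0.05 (SE, limma adjusted p = 0.00203). Slc30a1 (ZnT1, the zinc exporter of the plasma membrane) stood at 15.1, 14.3 and 17.0 RPKM in DHC libraries, against 21.0, 19.0 and 18.4 RPKM in control libraries, a log2 fold change of -0.32 ± 0.08 (SE, limma adjusted p = 0.0205). All DHC values were below all control values in the 3 genes. Slc30a2 (ZnT2, which fills vesicles with zinc) was also lower, at 15.9 ± 0.493 RPKM with DHC and 20.7 ± 1.58 RPKM in control, a log2 fold change of -0.36 (limma adjusted p = 0.00582). Slc39a10 (ZIP10, a zinc importer) was at 5.13 ± 0.411 RPKM with DHC and 6.27 ± 0.238 RPKM in control, a log2 fold change of -0.25 (limma adjusted p = 0.0495), at the edge of the threshold, and its call ended without any 1 of the 6 libraries, with no filter on low values or without both libraries numbered 1 (limma adjusted p between 0.0684 and 0.143). The call of Slc30a1 ended without control library 1 or 2, without DHC library 1 or 2 or without both libraries numbered 1 (limma adjusted p between 0.0501 and 0.0969). The exons of Slc30a1 and Slc39a10 each overlap an unnamed gene on the other strand.

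The 4 higher calls also came from both families. Slc39a9 (ZIP9) stood at 15.5, 16.0 and 16.3 RPKM in DHC libraries, against 12.4, 13.4 and 12.3 RPKM in control libraries, a log2 fold change of 0.31 ± 0.06 (SE, limma adjusted p = 0.00714). Slc30a9 (ZnT9) stood at 27.0, 26.5 and 26.0 RPKM in DHC libraries, against 22.8, 22.9 and 21.5 RPKM in control libraries, a log2 fold change of 0.24 ± 0.05 (SE, limma adjusted p = 0.0109). In both the DHC values were above all control values. Slc30a5 (ZnT5, which brings zinc into the secretory pathway) was at 13.7 ± 0.503 RPKM with DHC and 11.2 ± 0.907 RPKM in control, a log2 fold change of 0.27 (limma adjusted p = 0.0266), and its call ended without control library 2 or 3, without DHC library 2 or 3, after scaling by trimmed means or with median-of-ratios factors (limma adjusted p between 0.0563 and 0.0943). Slc39a3 (ZIP3, a zinc importer) was 1.92-fold higher at a low level (1.84 ± 0.218 RPKM with DHC and 0.962 ± 0.328 RPKM in control), with a log2 fold change of 0.55 (limma adjusted p = 0.0289), and its call ended without control library 2 or 3, without DHC library 2 or 3 or with no filter on low values (limma adjusted p between 0.0571 and 0.0895). Since its control mean was under 1 RPKM, Slc39a3 became a member through its DHC values. Higher calls numbered 2 without control library 2 or 3 or DHC library 2 or 3, and lower calls numbered 3 without control library 1 or 2 or DHC library 1 or 2.

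The metallothionein Mt1, a zinc-binding protein whose gene answers to zinc through the factor MTF1, is not a member and was taken from a list of 7 zinc-response genes, of which 2 were tested. It stood at 3.99, 4.11 and 5.28 RPKM in DHC libraries, against 0.0841, 1.77 and 0.150 RPKM in control libraries, a log2 fold change of 1.84 ± 0.34 (SE, limma adjusted p = 0.00526). Every DHC value was above every control value, although control library 2 was far above the other two control libraries. Its control mean lay under the mean of 1 RPKM needed to be tested, so it entered the test through its DHC values. Mtf1 itself had a log2 fold change of 0.19 (limma adjusted p = 0.132) and did not pass. The promoter of Slc30a1, another gene known to answer to zinc through MTF1, is shown from RefSeq (GRCr8, chr13:106021769-106022068, plus strand), with capitals on matches to the metal response element core TGCACNC or TGCGCNC, searched on both strands.
Slc30a1: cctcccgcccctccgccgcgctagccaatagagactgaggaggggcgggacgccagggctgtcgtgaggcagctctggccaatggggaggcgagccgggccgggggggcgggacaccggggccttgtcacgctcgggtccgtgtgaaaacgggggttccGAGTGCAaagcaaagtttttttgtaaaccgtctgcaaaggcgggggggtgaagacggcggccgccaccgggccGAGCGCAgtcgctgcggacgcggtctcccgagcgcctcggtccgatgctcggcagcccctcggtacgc
It holds 2 matches, both on the strand opposite to the one printed, and the one farther from the start begins 91 bases before it. The letters occur in 25.0% of the 27457 promoters, in 39 of the 105 members with a promoter in the table (37.1%) and in 8 of the 15 zinc carriers with one. Slc30a1 was lower with DHC while Mt1 was higher.

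Among carriers of other metals 14.3% passed, and among those of vitamins and choline 40%, against 34.5% of all genes tested. Of 7 carriers of iron, copper, magnesium and heme, Slc31a1 (CTR1, the copper importer) was higher, at 15.5 ± 1.40 RPKM with DHC and 12.2 ± 0.878 RPKM in control, a log2 fold change of 0.32 (limma adjusted p = 0.0221), and its call ended without control library 2 or 3 or without DHC library 1 or 2 (limma adjusted p between 0.0603 and 0.0819). Slc41a1 (a magnesium carrier) and Slc48a1 (a heme carrier) had log2 fold changes of -0.002 (limma adjusted p = 0.989) and -0.04 (limma adjusted p = 0.803). Of 5 carriers of vitamins and choline, Slc44a1 (a choline importer) stood at 11.0, 10.5 and 10.1 RPKM in DHC libraries, against 16.9, 13.9 and 13.9 RPKM in control libraries, a log2 fold change of -0.46 ± 0.09 (SE, limma adjusted p = 0.0061), with no overlap between groups. Slc19a2 (a thiamine importer) was higher, at 3.31 ± 0.265 RPKM with DHC and 2.26 ± 0.233 RPKM in control, a log2 fold change of 0.40 (limma adjusted p = 0.02), and its call ended without control library 2 (limma adjusted p = 0.0674), without DHC library 2 (0.0762) or without DHC library 3 (0.0549). Slc23a2, the sodium-coupled ascorbate importer, was at 4.58 ± 0.452 RPKM with DHC and 5.62 ± 0.184 RPKM in control and did not pass (log2 fold change -0.25, limma adjusted p = 0.0589), but did after scaling by trimmed means (0.0301), with median-of-ratios factors (0.0342), by limma-voom (0.0099) and without DHC library 1 (0.0375). Slc44a2 did not pass (-0.06).

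Among carriers of sugars and polyols 20% passed, and among those of lipids, bile acids and organic ions 25%. Of members with no assigned substrate 33.3% passed, against 34.5% of all genes tested. Of the 5 sugar and polyol carriers left after the exceptions of the rule, Slc2a6 (GLUT6) rose, at 7.42, 7.69 and 8.52 RPKM in DHC libraries, against 5.80, 6.10 and 5.13 RPKM in control libraries, a log2 fold change of 0.41 ± 0.09 (SE, limma adjusted p = 0.00976). All DHC values were above all control values, and the exons overlap Cacfd1 on the other strand. Slc50a1 and Slc2a8 did not pass, at log2 fold changes of 0.17 and -0.05, except for Slc50a1 without control library 3 (limma adjusted p = 0.0467). Among 4 carriers of lipids, bile acids and organic ions, Slc10a3 fell, at 3.97 ± 0.171 RPKM with DHC and 5.49 ± 0.177 RPKM in control, a log2 fold change of -0.39 (limma adjusted p = 0.00711), and Slc17a5 (the lysosomal sialic acid exporter) and Slc27a1 (a fatty acid transport protein) did not pass, at -0.19 and -0.01. Of 9 members with no assigned substrate, Slc45a4 (9.91 ± 0.121 RPKM with DHC and 7.45 ± 0.0638 RPKM in control) and Slc35g1 (5.73 ± 0.408 RPKM with DHC and 4.21 ± 0.119 RPKM in control) were higher, with log2 fold changes of 0.37 (limma adjusted p = 0.00309) and 0.37 (limma adjusted p = 0.0112). The groups overlapped in neither. Slc35e4 was lower, at 7.42 ± 0.0595 RPKM with DHC and 9.56 ± 1.08 RPKM in control, a log2 fold change of -0.32 (limma adjusted p = 0.0243), a call that ended without control library 3, without DHC library 1, 2 or 3, with no filter on low values or without both libraries numbered 1 (limma adjusted p between 0.0529 and 0.0838). Slc35e1, the most abundant of the 9, did not pass (-0.06).

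The 3 partner or neighbour symbols, grouped by name only, were all higher with DHC, as were 18.4% of all genes tested. With 3 genes, their share cannot be read as a result about the group. Slc9a3r1 (NHERF1, a scaffold that anchors carriers and receptors to the cytoskeleton) stood at 55.7, 60.1 and 66.5 RPKM in DHC libraries, against 38.96, 44.3 and 48.2 RPKM in control libraries, a log2 fold change of 0.46 ± 0.09 (SE, limma adjusted p = 0.00709). Slc4a1ap was at 65.3 ± 4.02 RPKM with DHC and 54.7 ± 0.787 RPKM in control, a log2 fold change of 0.25 (limma adjusted p = 0.0103). Slc7a6os, which lies 1.7 kb from Slc7a6, was at 30.0 ± 1.32 RPKM with DHC and 25.3 ± 0.932 RPKM in control, a log2 fold change of 0.24 (limma adjusted p = 0.0145), and its call ended after scaling by trimmed means (limma adjusted p = 0.0591), without control library 2 (0.0537) or without DHC library 3 (0.052). In all 3, no DHC value reached down to the control range. Slc7a6, an exchanger of cationic and neutral amino acids, had a log2 fold change of -0.14 (limma adjusted p = 0.198). With these 3 left out, 22 of 135 carriers were higher and 22 lower, 32.6% together, against 34.5% of all genes tested.

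Carriers that do not bear an Slc number were described from a list of 51, of which 34 were tested. Over all genes tested 34.5% passed, and of these 34 carriers 7 were higher and 6 lower, with a median log2 fold change of 0.05. The largest change among them was in Slco4a1, an organic anion transporter that takes up thyroid hormone, 4.17-fold lower with DHC. Slco4a1 stood at 3.21, 3.52 and 2.68 RPKM in DHC libraries, against 11.6, 14.1 and 13.7 RPKM in control libraries, a log2 fold change of -1.77 ± 0.11 (SE, limma adjusted p = 3.51e-05). No DHC library came near a control library. Its relative Slco3a1 was also lower, at 4.83 ± 0.880 RPKM with DHC and 8.75 ± 0.230 RPKM in control, a log2 fold change of -0.75 (limma adjusted p = 0.00194). Flvcr1, a choline transporter also described as a heme exporter, was higher, at 9.77 ± 0.586 RPKM with DHC and 5.96 ± 0.133 RPKM in control, a log2 fold change of 0.63 (limma adjusted p = 0.000548). Mpc1 (a subunit of the mitochondrial pyruvate carrier) and Mtch1 (of the outer mitochondrial membrane) were higher, with log2 fold changes of 0.37 (limma adjusted p = 0.00441) and 0.37 (limma adjusted p = 0.00248). Of 14 ABC transporters tested, 2 were higher and none lower, against 34.5% of all genes tested that passed. These 2 were Abcd3 (a peroxisomal importer of fatty acids) at 0.32 (limma adjusted p = 0.00268) and Abcg1 (a cholesterol exporter) at 0.39 (limma adjusted p = 0.0202). The call of Abcg1 ended without control library 2 or 3, without DHC library 2 or 3 or with no filter on low values (limma adjusted p between 0.0511 and 0.074).

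Of 14 partner chaperones and kinases of carriers tested, 3 were higher (Slc9a3r1 among them) and 3 were lower, against 34.5% of all genes tested that passed. Oxsr1, a kinase that phosphorylates and activates Slc12a2, was at 33.8 ± 1.02 RPKM with DHC and 40.1 ± 0.264 RPKM in control, a log2 fold change of -0.24 (limma adjusted p = 0.00616). Cab39 (MO25 alpha, a scaffold that activates such kinases) was at 53.7 ± 1.73 RPKM with DHC and 77.6 ± 1.13 RPKM in control, a log2 fold change of -0.52 (limma adjusted p = 0.000148). Sgk1, a kinase that raises the surface level of several carriers, was at 13.3 ± 0.832 RPKM with DHC and 22.4 ± 1.63 RPKM in control, a log2 fold change of -0.71 (limma adjusted p = 0.000379). The groups overlapped in none of these 3. The other kinases tested did not pass: Stk39 (-0.11, limma adjusted p = 0.275), Wnk1 (-0.13, limma adjusted p = 0.168) and Sgk3 (0.19, limma adjusted p = 0.247). A link between these levels and that of Slc12a2 was not tested. Cab39l, the homolog of Cab39, was higher (0.49, limma adjusted p = 0.00356), and so was Ostm1 (0.56, limma adjusted p = 0.00127), the partner of a lysosomal chloride exchanger. Bsg (basigin, the chaperone of lactate carriers) was at 823 ± 20.4 RPKM with DHC and 746 ± 53.2 RPKM in control and did not pass (0.14, limma adjusted p = 0.0934). Of 9 iron-handling genes tested, 1 was higher and 2 were lower, against 34.5% of all genes tested that passed. Hmox1, heme oxygenase, was at 56.1 ± 4.04 RPKM with DHC and 80.6 ± 11.9 RPKM in control, a log2 fold change of -0.51 (limma adjusted p = 0.00981). Transferrin (Tf) was lower (-0.25, limma adjusted p = 0.0266) and Ireb2, an iron-sensing RNA-binding protein, was higher (0.31, limma adjusted p = 0.022). The call of Tf ended without control library 2 or 3 or without DHC library 1, 2 or 3 (limma adjusted p between 0.0616 and 0.0845), and that of Ireb2 without control library 2 (limma adjusted p = 0.0717), without control library 3 (0.0684) or without DHC library 3 (0.0731).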

How the data were processed

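Total RNA (Trizol) of RBL-2H3 cells went into Illumina libraries, per the labels' protocols, and samples were grouped by title into 3 DHC and 3 control libraries. The submitters' processing notes name the build Rnor_6.0 and the tools Trimmomatic (0.36), Subread (1.5.1) with featureCounts, and edgeR (3.12.1). Not given in the sources used here are the aligner, the strand setting and the release of the annotation. The authors deposited 1 table of RPKM values with exon coordinates and exon lengths, per the file headers. That the unit is RPKM was found from the values, since value times exon length in kilobases times the library total recovered from the values, scaled to its unit, was a whole number of reads for 100% of values (within 0.01 read) in all 6 columns. RPKM values carry no scaling beyond the library total.

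Because the unit is RPKM, the test was limma 3.58.1 in R 4.3.3, with a trended variance on log2(RPKM + 1), for all 10667 genes that averaged 1 RPKM or more. Group was its single term, and p-values were adjusted by Benjamini-Hochberg, with a threshold of 0.05. It was tested on simulated data. Log2 fold changes are on that scale, and N-fold values are ratios of mean RPKM. Errors after ± are SD over 3 libraries unless marked SE, and values listed by library run from replicate 1 to 3. Replicates differed by more than sampling noise (chi-square per degree of freedom 4.74 to 17.8), so none was counted as a repeat.

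Members, substrate classes and gene lists were chosen with earlier results of these data known. Classes follow the Slc family, with named exceptions for single genes. The text names, in each direction, the 12 calls of largest size without overlap. In classes of at least 4, the 3 most abundant and the 2 lowest p in each direction were also named. So were calls in smaller classes, opposite calls within a family and the genes next to the level of the rule. Other members named were chosen after their values were seen. Values of some members are not reported here. Alternatives were other pseudocounts, filters, scalings, variance estimates and thresholds, limma-voom on the recovered reads, a replicate block, and leaving out libraries. Promoters came from a RefSeq table of GRCr8, where 105 of 138 members were found by symbol.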

Additional observations from a re-analysis of the deposited data

How the results depend on the processing

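The 25 higher members became 16 with a filter at a mean of 5 RPKM (members below it were not tested), 11 at an adjusted p of 0.01, 3 with at least 1.5-fold on the log2 scale as well, and 15 to 23 when 1 library was left out. The 22 lower members became 14 at an adjusted p of 0.01, 2 with at least 1.5-fold as well, and 17 to 20 when 1 library was left out. The cause of the drop without control library 2, DHC library 2 or DHC library 3 was not tested. Of the 47 calls, 6 were lost after scaling by trimmed means, 5 with median-of-ratios factors, 11 with no filter on low values and 10 without both libraries numbered 1, and limma-voom lost none and added 7. Other pseudocounts and robust variance estimation left all 47 in place. Same-numbered libraries had correlations of 0.228, -0.05 and 0.083, and differently numbered ones -0.183 to 0.106. These few values cannot settle whether the numbers pair the libraries. Of all genes tested, 40.6% passed with the replicate block, against 34.5% without it. The replicate block gave 29 higher and 22 lower members, with 5 gained, Slc25a3 and Slc25a4 (limma adjusted p = 0.0344 each), Slc25a16 (0.0336), Slc35b1 (0.0357) and Slc16a1 (0.0485), and 1 lost, Slc37a3 (0.0545). For the 60 members named by rule, 836 of the values under an alternative kept their direction and side of the threshold, 81 fell below it, 10 passed it and 19 changed sign.

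The sign turned under at least 1 of the 16 alternatives that kept the threshold in 38 of the 138 members, none of them called. Among the 60 named by rule they were 7. The log2 fold change of Slc41a1 was 0.0031 by limma-voom, 0.008 without both libraries numbered 1 and -0.0616 to 0.0602 when 1 library was left out. That of Slc48a1 was 0.1205 without both libraries numbered 1 and -0.1191 to 0.0443 with 1 left out. After scaling by trimmed means and with median-of-ratios factors, Slc25a5 had -0.0337 and -0.024, and Slc39a7 had -0.0264 and -0.0167. With 1 library left out, Slc25a5 ran from -0.0012 to 0.0627, Slc27a1 from -0.073 to 0.0486, Slc2a8 from -0.134 to 0.0956 and Slc44a2 from -0.1303 to 0.0285. The median coefficient of variation among replicates was 11.8% with DHC and 12.6% in control for members from 1 to 5 RPKM, and 6.05% with DHC and 7.14% in control for those at 5 RPKM or more. The part of depth in this was not tested.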
